A study of Mus musculus with 6 samples.

Results

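The genes described here build, crosslink and cut the extracellular matrix of the liver, together with a few genes of its stellate cells. They were taken by symbol from the deposited expression table: collagen chains, laminin chains, Lox and Loxl1 to Loxl4, the Timp, Mmp and Adamts families, Fn1, Sparc, Dcn, Lum, Des, Acta2, Pdgfrb, Reln, Lhx2 and Hand2. This rule gave 89 of the 14669 genes in the table. They comprise 30 collagen chains, 11 laminin chains, 4 matrix glycoproteins, 5 lysyl oxidases, 17 Mmp proteases, 13 Adamts proteases, 3 protease inhibitors and 6 stellate genes.

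The mice were male C57BL/6J animals of wild-type genotype, 8 weeks old. Each received 25 µg of either the plko-scramble control plasmid or the plko-shBicd2 plasmid, made against the dynein adaptor gene Bicd2, in 2.5 ml of saline by hydrodynamic injection. Hydrodynamic injection is a rapid tail vein injection of a large volume that carries plasmid mainly into hepatocytes. On day 3 both groups were given 15 mg/kg of concanavalin A (ConA), a lectin that provokes T cell driven hepatitis, and whole livers were taken 6 hours later. Both groups therefore carry the plasmid injection and the ConA injury, and no liver without either was analysed here. Whole-liver RNA was sequenced in 3 libraries of each group; the table names those of scramble Sc3, Sc4, Sc5 and those of shBicd2 sh1, sh3, sh6.

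Values are FPKM, that is, fragments scaled to the length of the gene and to the counted reads of the library. The reads behind them, recovered from the steps of the low values, numbered 16.03 to 18.93 M per library. Bicd2 itself had 4.14, 3.43 and 3.13 FPKM across Sc3, Sc4 and Sc5, against 3.61, 2.57 and 2.97 across sh1, sh3 and sh6. Its groups overlapped (log2 fold change -0.17 ± 0.16 SE, limma adjusted p = 0.624), so the RNA does not show the targeted gene to be lower and the libraries are named by their labels throughout. The libraries sh1 and sh3 stood apart from the others: sh1 was the highest or the lowest of the 6 for 34.1% and 28.8% of the genes tested, and sh3 was the lowest for 33.9%. All 12 hepatocyte markers were present, led by Alb at 15373 to 26213 FPKM, as is typical of liver. The labels do not say that the libraries of a group come from separate animals, so p-values measure only the spread between these samples.

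The liver matrix is mostly collagen and laminin laid down by stellate cells, sinusoidal endothelium and portal fibroblasts. Fibrillar collagens form the fibres of a scar, whereas type IV collagen and laminins form sheets under endothelium and bile ducts. Lysyl oxidases crosslink collagen and elastin, Mmp and Adamts enzymes cut the matrix, and Timp proteins inhibit those enzymes. Quiescent stellate cells store vitamin A and express Des, Reln, Lhx2 and Hand2, and on activation they turn on Acta2 and fibrillar collagens.

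Most of these genes were scarce 6 hours after ConA. Only 35 of the 89 reached the mean of 1 FPKM over the 6 libraries that the test required, and the other 54 rest on 1 to 418 reads per library. The 35 lay mostly lower in shBicd2. Of them 31 had a log2 fold change below 0, while 5944 of all 10152 genes tested did. The median of the 35 was -0.41, against -0.06 over all genes tested. As a share of its own scramble mean, the median gene of the 35 stood at 62.5% in sh1, 71.4% in sh3 and 63.6% in sh6, while the median of all tested genes stood at 98%, 85% and 98.9%. In whole liver, fewer cells of a type and less RNA per cell cannot be told apart.

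No gene passed the threshold. With limma on log2(FPKM + 1) and Benjamini-Hochberg adjustment over all genes tested, 0 of 10152 genes (0%) and 0 of the 35 had an adjusted p under 0.05, and the smallest adjusted p among the 35 was 0.152. The limma voom fit on the recovered reads also called 0 genes. At an unadjusted limma p under 0.05, 17 of the 35 were lower in shBicd2 (48.6%) and 0 were higher. Over all genes tested the same shares were 12.7% lower and 2.97% higher. With median-of-ratios scaling, which moves the split of all genes to 797 lower against 686 higher from 1291 against 302, 11 of the 35 were lower (31.4%) against 7.85% of all genes. With quantile normalization 12 were lower (34.3%) against 8.05%, and on the TPM scale, which moves the median of all genes to -0.16, 18 were lower (51.4%) against 17.4%.

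Counted without a test, 16 of the 35 (45.7%) had all 3 shBicd2 values below all 3 scramble values, and 0 had them above. Over all tested genes these shares were 18.7% and 5.7%. For 3 libraries against 3, the smallest p that an exact permutation test can give is 0.1, so by that test no single gene can pass. The limma fit has no such floor. Leaving out sh3, 289 genes passed the adjusted threshold, among them Col4a1, Col4a2, Timp1 and Adamts1, with limma adjusted p-values of 0.0314 to 0.0384. Without any other 1 library 0 genes passed. With limma array weights, which gave sh1 and sh3 weights of 0.18 and 0.284 against 4.67 for sh6, 2709 genes passed, 21 of them among the 35. Leaving out Sc5 brought the members lower at an unadjusted p under 0.05 to 10 of 35 (28.6%). The share of all genes tested fell to 6.89% as well.

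**Figure D1:**
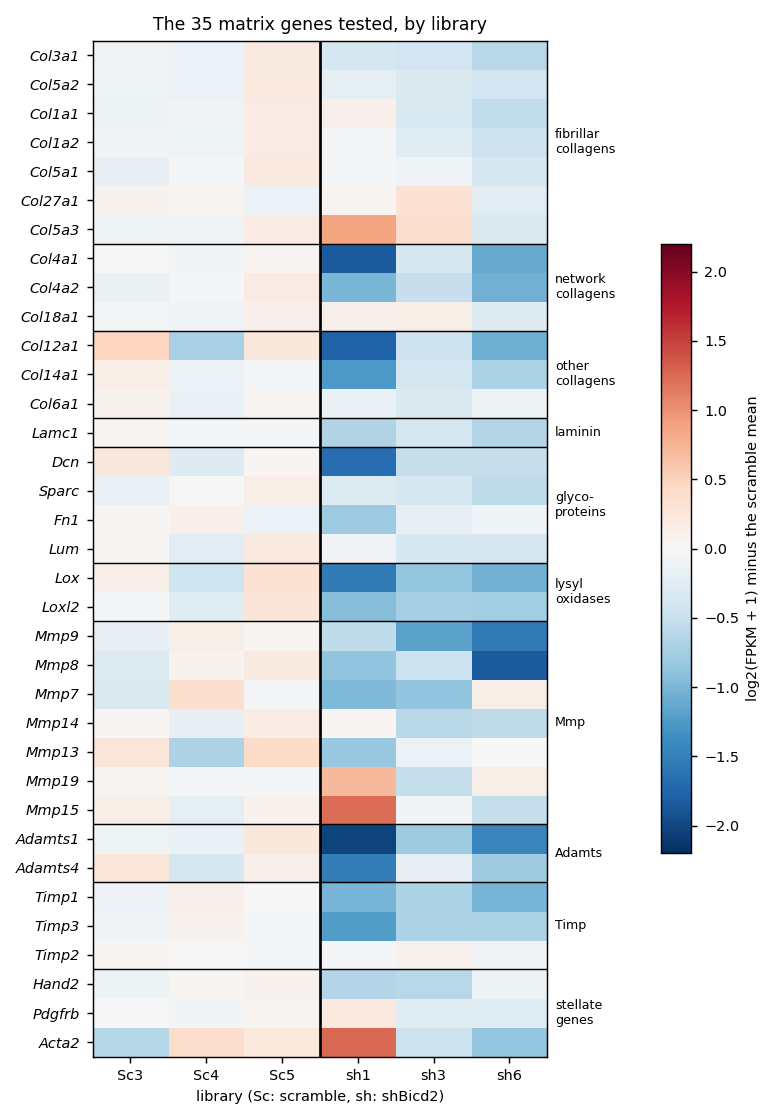
Each row is one of the 35 genes tested and each column a library. The colour is log2(FPKM + 1) minus the mean of the 3 scramble libraries, blue lower and red higher. Most rows are blue in all 3 shBicd2 columns, while Col5a3, Mmp15, Mmp19 and Acta2 are red in sh1.

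The heat map by library shows that the 3 shBicd2 livers were low in different places. Of the 35 genes, sh6 was the lowest of the 6 libraries for 18 (51.4%, against 11.3% of all tested genes), sh1 for 14 (40.0%, against 28.8%) and sh3 for 3 (8.57%, against 33.9%). No scramble library was the lowest for any of the 35. Among scramble livers Sc5 was the highest of the 6 for 16 (45.7%, against 15.5% of all tested genes).

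Of the 9 fibrillar collagens, the fibre-forming chains, 7 were tested. At an unadjusted limma p under 0.05, 1 was lower (14.3%, near the 12.7% over all genes). Their median log2 fold change was -0.25. Without Sc5 or sh6 the count was 0, and without sh1 it was 3. That 1 chain, Col3a1, which forms type III collagen, had 12.7, 12.2 and 15.5 FPKM across Sc3, Sc4 and Sc5, against 10.1, 9.81 and 8.38 across sh1, sh3 and sh6. All shBicd2 livers lay below all scramble livers (log2 fold change -0.47 ± 0.16 SE, limma adjusted p = 0.229). With median-of-ratios or quantile scaling, 0 fibrillar chains were lower at an unadjusted p under 0.05.

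The type I collagen chains, the bulk of scar collagen, did not separate the groups. Col1a1 had 7.29, 7.51 and 9.16 FPKM in scramble, against 8.69, 6.07 and 5.16 across sh1, sh3 and sh6. Col1a2 had 4, 3.93 and 5.02 FPKM in scramble, against 4.21, 3.4 and 2.88 across sh1, sh3 and sh6. For both, sh1 lay inside the scramble range and sh3 and sh6 below it, and both had a log2 fold change of -0.25 (limma adjusted p = 0.574 for Col1a1 and 0.502 for Col1a2). The 2 chains kept step with each other, with an FPKM ratio of Col1a1 to Col1a2 of 1.82 to 1.91 in scramble and 1.79 to 2.07 in shBicd2.

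The type V chains, which nucleate fibrils, were unlike one another. Col5a2, the neighbour of Col3a1 at 24.6 kb on chromosome 1, had 1.28, 1.23 and 1.81 FPKM in scramble, against 1.09, 0.947 and 0.815 in shBicd2. Its groups did not overlap, but its unadjusted limma p was 0.0665. Col5a3 had 1.87, 1.92 and 2.48 FPKM in scramble, against 4.61, 2.97 and 1.47 across sh1, sh3 and sh6, so sh1 and sh3 were above and sh6 below every scramble liver. Col5a1 and Col27a1 overlapped between groups, with log2 fold changes of -0.16 and 0.05. Col11a2 and Col24a1, chiefly cartilage and bone chains, were under the filter and overlapped too.

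Both chains of basement membrane collagen IV were lower in every shBicd2 liver. Col4a1 and Col4a2 encode the 2 chains of the common type IV trimer and lie head to head on chromosome 8 (GRCm38, Col4a1 at chr8:11198423-11312826 on the minus strand and Col4a2 at chr8:11312805-11449287 on the plus strand), so that their annotated 5′ ends overlap by 22 bases. Col4a1 had 40.9, 39 and 42.5 FPKM in Sc3, Sc4 and Sc5, within a narrow range. It had 10.7, 31.9 and 18.3 FPKM across sh1, sh3 and sh6, all below scramble, with sh3 nearest to it and sh1 farthest.

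Col4a2 had 12.1, 13.3 and 15.4 FPKM in scramble, against 6.2, 9.17 and 5.98 across sh1, sh3 and sh6, again with no overlap. The log2 fold changes were -1.10 ± 0.35 SE for Col4a1 (limma adjusted p = 0.218) and -0.86 ± 0.19 SE for Col4a2 (limma adjusted p = 0.169). Mean levels in shBicd2 were 49.7% and 52.5% of the scramble means. Without sh3, the shBicd2 library nearest to scramble for both, they passed, at limma adjusted p-values of 0.0384 for Col4a1 and 0.037 for Col4a2. Without any other 1 library neither chain passed. The Col4a1 to Col4a2 ratio was 2.77 to 3.39 in scramble and 3.48 and 3.06 in sh3 and sh6, but 1.72 in sh1, where Col4a1 was the further down of the pair.

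Col18a1, a heparan sulfate bearing collagen that hepatocytes themselves make, overlapped between groups. It was the most abundant collagen per length, with 97.1, 94.5 and 108 FPKM in scramble, against 108, 109 and 82.1 across sh1, sh3 and sh6. Only sh6 lay below the scramble range (log2 fold change -0.01 ± 0.17 SE, limma adjusted p = 0.982), and the sign turned to 0.08 with median-of-ratios scaling. Its share of summed collagen FPKM was 48.2% to 49.1% in scramble and 56.9% to 63.9% in shBicd2. Without Col18a1 the summed collagen FPKM was 97.9 to 116 in scramble and 57.2 to 82.6 in shBicd2, with no overlap (exact permutation p = 0.1, the smallest possible). Col4a1 and Col4a2 gave 40.8 and 13.6 FPKM of this on average in scramble, against 20.3 and 7.12 in shBicd2. The fibrillar sums overlapped, at 30.7 to 38.1 against 21.7 to 32.7 FPKM. Those of the collagens outside the fibrillar and network groups did not, at 13.9 to 19.1 against 8.71 to 13 FPKM.

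Of the other network chains, Col8a1, a short-chain collagen of vessel walls, was under the test filter with 0.323, 0.235 and 0.319 FPKM in scramble, against 0.217, 0.0691 and 0.189 in shBicd2, and did not overlap. Col15a1, a basement membrane collagen related to Col18a1, had 0.29 to 0.589 FPKM in scramble, against 1.87, 0.142 and 0.557 across sh1, sh3 and sh6. Its shBicd2 values thus spanned more than the whole scramble range. Col4a3, Col4a4, Col4a5 and Col7a1 overlapped between groups on 1 to 76 reads per library.

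Among the fibril-associated collagens, which decorate the surface of fibres, Col14a1 and Col12a1 were lower. Col14a1 had 7.53, 6.03 and 6.57 FPKM in scramble, against 2.19, 4.89 and 3.76 across sh1, sh3 and sh6, without overlap (log2 fold change -0.78 ± 0.24 SE, limma adjusted p = 0.205). Col12a1 varied widely, from 1.46 to 4.58 FPKM in scramble and from 0.176 to 1.92 FPKM in shBicd2. Its groups overlapped, because sh3 lay above Sc4, although its limma p was 0.0296 (log2 fold change -1.10 ± 0.41 SE, adjusted p = 0.265).

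Type VI collagen, a beaded filament around cells, gave 1 tested chain, Col6a1, with 2.46 to 3.08 FPKM in scramble and 2.07 to 2.54 FPKM in shBicd2. Those groups overlapped (log2 fold change -0.19, limma adjusted p = 0.531), as did those of Col6a2, Col6a3, Col6a5 and Col6a6 and of Col9a3, Col13a1 and Col20a1, all under the filter. Col16a1 did not overlap, at 0.533, 0.504 and 0.601 FPKM in scramble, against 0.446, 0.392 and 0.282 in shBicd2. Col25a1, a transmembrane collagen, was the only collagen with every shBicd2 value above every scramble value. Its scramble livers read 0.0475, 0.0385 and 0.0335 FPKM, against 0.109, 0.245 and 0.178 across sh1, sh3 and sh6. These values rest on 7 to 11 and 26 to 53 reads per library, which are approximate because its annotated length differs from the one behind the table.

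Laminins, which with collagen IV build the basement membrane, were represented above the filter by 1 chain. Lamc1, the gamma chain of most laminin trimers, had 4.78, 4.51 and 4.46 FPKM in scramble, against 2.52, 3.27 and 2.59 in shBicd2. All shBicd2 livers were below all scramble livers (log2 fold change -0.56 ± 0.14 SE, limma adjusted p = 0.179). Its common partner Lamb1 was under the filter at 0.907, 0.776 and 0.931 FPKM against 0.519, 0.637 and 0.506 FPKM, also without overlap.

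The alpha chains, which give a laminin its receptor specificity, were all below 1 FPKM on average. Lama1 did not overlap, at 0.36, 0.317 and 0.406 FPKM in scramble, against 0.17, 0.286 and 0.224 in shBicd2. Lama4, the endothelial alpha chain, overlapped at 0.14 to 0.253 FPKM against 0.0744 to 0.172 FPKM, and so did Lama2, Lama3 and Lama5. Lama5 pointed the other way in sh1, at 0.981 FPKM against 0.286 to 0.534 FPKM in scramble. The beta and gamma chains Lamb2, Lamb3 and Lamc3 overlapped as well. Summed over all 11 laminin chains the level was 8.65, 9.23 and 8.7 FPKM in scramble, against 6.6, 6.67 and 6.46 in shBicd2. The range was narrow in each group. Lamc1 alone gave 4.78, 4.51 and 4.46 FPKM of this in scramble, against 2.52, 3.27 and 2.59 in shBicd2. The sum therefore does not show the other chains to be lower.

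All 4 matrix glycoproteins were tested, and all had a log2 fold change below 0. Dcn, a proteoglycan that binds collagen fibrils and is typical of fibroblasts, had 20.9, 14.1 and 18 FPKM in scramble, against 4.78, 11.9 and 12 across sh1, sh3 and sh6. The groups did not overlap and sh1 was by far the lowest (log2 fold change -0.90 ± 0.34 SE, limma adjusted p = 0.268). Its neighbour Lum, 47.0 kb away on chromosome 10, overlapped at 2.32 to 3.57 FPKM against 2.05 to 2.77 FPKM (limma adjusted p = 0.5).

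Sparc, a collagen-binding matricellular protein, had 25, 27.9 and 30.8 FPKM in scramble, against 22.3, 21.3 and 18.5 in shBicd2. The groups were apart but close (log2 fold change -0.41 ± 0.16 SE, limma adjusted p = 0.27). Fn1, fibronectin, is secreted into plasma by hepatocytes and was the most abundant gene of the 89, with 273, 290 and 246 FPKM in scramble. In sh1, sh3 and sh6 it had 154, 238 and 253 FPKM, so sh6 lay inside the scramble range (log2 fold change -0.35 ± 0.22 SE, limma adjusted p = 0.472).

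**Figure D2:**
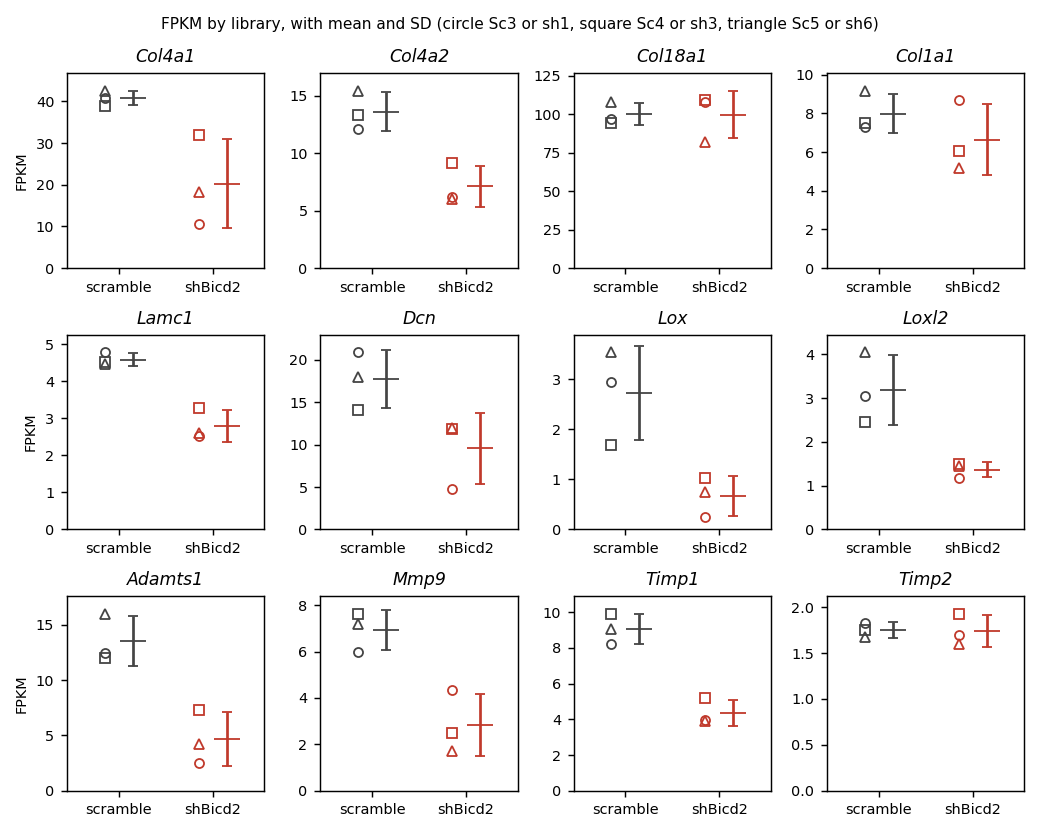
FPKM of 12 genes in each library, with the group mean and SD beside the points, every axis starting at 0. Collagen IV, Lamc1, Dcn, the crosslinkers, Adamts1, Mmp9 and Timp1 lie lower in every shBicd2 library, and Col18a1, Col1a1 and Timp2 overlap.

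Of the 5 lysyl oxidases, 4 had every shBicd2 value below every scramble value. These were 2 of 2 tested and 2 of 3 under the filter. Over all genes the shares were 18.7% of those tested and 11.5% of those under the filter. Lox, which oxidises lysines of collagen and elastin to start crosslinks, had 2.94, 1.69 and 3.54 FPKM across Sc3, Sc4 and Sc5, against 0.241, 1.02 and 0.741 across sh1, sh3 and sh6. Its mean in shBicd2 was 24.5% of scramble, with no overlap (log2 fold change -1.15 ± 0.26 SE, limma adjusted p = 0.169). Lox rests on 145 to 271 reads in scramble and 21 to 81 reads in shBicd2.

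Loxl2, a family member found in basement membranes and in scars, had 3.06, 2.46 and 4.05 FPKM in scramble, against 1.17, 1.49 and 1.45 in shBicd2. It too did not overlap (log2 fold change -0.81 ± 0.17 SE, limma adjusted p = 0.168). The ratio of Lox to Loxl2 was 0.689 to 0.962 in scramble and 0.205 to 0.684 in shBicd2, so Lox stood lower relative to Loxl2 in every shBicd2 liver, by a narrow margin.

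Loxl4, under the filter, had 0.747, 0.529 and 1.2 FPKM in scramble, against 0.429, 0.314 and 0.301 in shBicd2, again apart. Loxl1 was apart by less than the last digit shown, since Sc3 and sh6 both read 0.801 FPKM. Loxl3 overlapped at 0.352 to 0.44 FPKM against 0.327 to 0.904 FPKM, and shares 11.6% of its exon length with Htra2 on the other strand. The strand setting of the counting is not given in the sources used here. Over the 5 genes the sum was 6.4 to 10.1 FPKM in scramble and 3.55 to 3.79 FPKM in shBicd2.

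The protease inhibitors split into Timp1 and Timp3 on one side and Timp2 on the other. Timp1, an acute-phase inhibitor made by injured liver, had 8.23, 9.92 and 9.06 FPKM across Sc3, Sc4 and Sc5, against 3.95, 5.22 and 3.93 across sh1, sh3 and sh6. It had the smallest p of the 35 (log2 fold change -0.91 ± 0.15 SE, limma adjusted p = 0.152), and its groups were well apart. Without sh3, its shBicd2 library nearest to scramble, its limma adjusted p was 0.0347. Timp1 did not pass without any other 1 library.

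Timp3, which binds the matrix and also inhibits Adamts enzymes, had 3.03, 3.42 and 3.11 FPKM in scramble, against 0.787, 1.6 and 1.58 across sh1, sh3 and sh6. Its mean in shBicd2 was 41.5% of scramble (log2 fold change -0.87 ± 0.18 SE, limma adjusted p = 0.166). Timp3 shares 21.3% of its exon length with Syn3 on the other strand. Timp2, the constitutive member of the family, had 1.83, 1.75 and 1.67 FPKM in scramble, against 1.7, 1.93 and 1.6 in shBicd2. Its log2 fold change was -0.00 ± 0.12 SE, and it turned to 0.06 with median-of-ratios and 0.07 with quantile scaling.

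The Mmp family was uneven. Mmp8 and Mmp9, the collagenase and gelatinase stored in neutrophil granules, were lower. Mmp8 had 7.53, 9.96 and 10.8 FPKM in scramble, against 4.63, 6.58 and 1.9 across sh1, sh3 and sh6. Mmp9 had 5.97, 7.64 and 7.17 FPKM in scramble, against 4.33, 2.48 and 1.7 across sh1, sh3 and sh6.

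Neither overlapped between groups, and sh6 was the lowest for both. The log2 fold changes were -1.05 ± 0.35 SE for Mmp8 (limma adjusted p = 0.226) and -1.10 ± 0.25 SE for Mmp9 (limma adjusted p = 0.174). Mmp25, a membrane protease of neutrophils, was under the filter and apart as well, with 0.816, 0.736 and 0.765 FPKM in scramble, against 0.578, 0.397 and 0.269 in shBicd2.

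Neutrophil markers were counted beside these 3 genes. Of 11 neutrophil genes 10 were tested, 3 were lower at an unadjusted limma p under 0.05 (Cxcr2, Ly6g and Csf3r) and 0 were higher, and 3 had a log2 fold change above 0. The 3 lower genes made 30.0% of the 10, against 12.7% lower over all genes tested. Without sh1, 5 neutrophil genes were lower, and without sh6 1 was higher. Their summed level was 375 to 520 FPKM in scramble, against 481, 311 and 151 across sh1, sh3 and sh6, and none was at 0. Only sh3 and sh6 lay below scramble, and sh1 was inside its range. The chemokine receptor Cxcr2 had 6.36, 5.73 and 4.89 FPKM in scramble, against 2.69, 2.74 and 1.91 in shBicd2 (log2 fold change -0.95 ± 0.16 SE, limma adjusted p = 0.152). Of the 11 genes, 1 was above every scramble liver and 7 below in sh3, and 0 were above and 10 below in sh6. In sh1, 5 were above and 4 below. The 5 encode granule proteins: Camp at 11.6 FPKM against 1.03 to 1.73 in scramble, Ltf at 12.3 against 1.44 to 3.72, Ngp at 40.3 against 12.2 to 27, Elane at 3.39 against 0.634 to 1.02 and Mpo at 1.41 against 0.394 to 0.674. The part of neutrophil numbers in the Mmp8, Mmp9 and Mmp25 values was not tested.

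Mmp14, Mmp2, Mmp15 and Mmp19 overlapped between groups. Mmp14, the membrane collagenase that activates Mmp2, had 7.45 to 9.75 FPKM in scramble, against 8.9, 5.28 and 5.5 across sh1, sh3 and sh6 (limma adjusted p = 0.429). Mmp2, the gelatinase of stellate cells, was under the filter at 0.728 to 0.984 FPKM against 0.52 to 0.786 FPKM. Mmp15 and Mmp19 were highest in sh1, at 4.72 and 14.6 FPKM, against 1.12 to 1.66 and 8.24 to 8.94 FPKM in scramble, and without sh1 their log2 fold changes turned from 0.21 and 0.10 to -0.29 and -0.20. Mmp19 shares 22.3% of its exon length with Tmem198b on the other strand.

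The genes Mmp13, Mmp12, Mmp3, Mmp8, Mmp27 and Mmp7 stand in a cluster on chromosome 9, with 408.8 kb from the end of Mmp13 to the start of Mmp7. Mmp12, the macrophage elastase, had 0.225, 0.27 and 0.44 FPKM in scramble, against 0.113, 0.191 and 0.139 in shBicd2, without overlap. Mmp3, stromelysin, did not overlap either, but on 3 to 17 reads per library. Mmp13, the interstitial collagenase of rodents, overlapped at 1.17 to 3.62 FPKM against 0.942 to 2.51 FPKM (limma adjusted p = 0.69). Mmp11, Mmp17, Mmp23 and Mmp28, outside the cluster and under the filter, overlapped on 1 to 29 reads. Mmp7 and Mmp27 overlapped too, Mmp7 at 1.95, 3.66 and 2.57 FPKM against 0.871, 1.01 and 3.02 FPKM.

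The Mmp promoters are a textbook case of control by AP-1, the Fos and Jun dimer that binds TGANTCA. Mmp8 had the lowest log2 fold change of the cluster genes tested, and those of Timp1 and Adamts1 were among the lowest of the 35. The 100 bases upstream of the RefSeq start are shown for these and for 3 genes of the cluster that hold the motif. Each runs 5′ to 3′ on the strand of its gene (GRCm38.p6), with any match to TGANTCA in capitals.
Mmp13 (chr9:7272414-7272513, plus strand): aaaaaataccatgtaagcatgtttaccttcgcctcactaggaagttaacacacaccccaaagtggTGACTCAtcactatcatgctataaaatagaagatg
Mmp3 (chr9:7445722-7445821, plus strand): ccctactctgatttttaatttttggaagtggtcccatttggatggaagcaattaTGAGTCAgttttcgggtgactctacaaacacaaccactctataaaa
Mmp7 (chr9:7691990-7692089, plus strand): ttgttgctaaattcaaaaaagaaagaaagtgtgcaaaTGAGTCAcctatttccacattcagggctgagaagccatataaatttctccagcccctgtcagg
Mmp8 (chr9:7558329-7558428, plus strand): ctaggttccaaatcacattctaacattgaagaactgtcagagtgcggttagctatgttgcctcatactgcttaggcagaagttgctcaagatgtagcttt
Timp1 (chrX:20870066-20870165, plus strand): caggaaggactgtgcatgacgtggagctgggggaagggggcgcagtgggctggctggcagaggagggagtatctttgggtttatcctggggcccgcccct
Adamts1 (chr16:85803114-85803213, minus strand): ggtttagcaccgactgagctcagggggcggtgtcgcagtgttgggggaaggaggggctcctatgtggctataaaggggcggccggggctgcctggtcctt

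The match begins 35 bases before the start in Mmp13, 46 in Mmp3 and 63 in Mmp7. In Mmp8, Timp1 and Adamts1 these letters are absent from the 250 bases upstream. Windows of 250 bases were at hand for 59 of the 89 genes, and 5 held the motif (Col6a1, Mmp12, Mmp13, Mmp3 and Mmp7), against 7.82% of 27025 genes. The motif reads the same on both strands. Among tested genes without overlap 9 had a window and 0 held it, and among those that overlapped 12 had one and 3 held it. That split leaves out Mmp12 and Mmp3, which held the motif under the filter and did not overlap between groups. A match is a description of letters and not a binding site, and none of the windows printed touches an annotated exon.

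Of the Adamts proteases, which trim proteoglycans and procollagens, Adamts1 showed the lowest log2 fold change of the 35. Adamts1, which cuts versican and aggrecan and is induced early in injury, had 12.4, 12 and 16 FPKM across Sc3, Sc4 and Sc5, against 2.51, 7.33 and 4.22 across sh1, sh3 and sh6. The mean in shBicd2 was 34.8% of scramble, from 1138 to 1364 reads in scramble and 243 to 646 reads in shBicd2. The groups did not overlap (log2 fold change -1.43 ± 0.31 SE, limma adjusted p = 0.169). Without sh3, the shBicd2 library nearest to scramble, the limma adjusted p was 0.0314. Adamts1 did not pass without any other 1 library.

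Adamts4, an aggrecanase, had 3.24, 1.76 and 2.81 FPKM in scramble, against 0.239, 2.13 and 1.07 across sh1, sh3 and sh6. It overlapped because sh3 lay above Sc4 (log2 fold change -0.83 ± 0.34 SE, limma adjusted p = 0.307). Adamts9, a versican-cleaving relative under the filter, had 0.96, 0.671 and 1.27 FPKM in scramble, against 0.196, 0.624 and 0.221 in shBicd2, and did not overlap.

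Adamts2, which removes the amino-terminal propeptide of fibrillar procollagen, was apart at 0.825, 0.872 and 1.05 FPKM against 0.545, 0.651 and 0.566 FPKM. Adamts12 was apart as well, on 23 to 54 reads per library. Adamts14, another procollagen peptidase, was the only protease with all shBicd2 values above scramble, at 0.227, 0.258 and 0.312 FPKM against 0.695, 0.347 and 0.346 FPKM. Adamts7 reached 1.94 FPKM in sh1 against 0.224 to 0.487 FPKM in scramble, while sh3 and sh6 were below scramble at 0.163 and 0.101 FPKM. Adamts3, Adamts5, Adamts6, Adamts10, Adamts13 and Adamts15 overlapped between groups.

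Of the stellate genes in the set, 1 of 3 tested was lower at an unadjusted limma p under 0.05 (33.3%, against 12.7% of all genes). Without any 1 library other than sh6 the count was 0. Hand2, a transcription factor of stellate cells, had 1.63, 1.87 and 1.99 FPKM in scramble, against 0.815, 0.845 and 1.62 across sh1, sh3 and sh6. The groups were apart only narrowly, and sh6 lay just below Sc3 (log2 fold change -0.45 ± 0.18 SE, limma adjusted p = 0.286). Hand2 shares 19.6% of its exon length with Hand2os1 on the other strand.

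Acta2, smooth muscle actin and the usual mark of activated stellate cells, had 1.54, 4.14 and 3.64 FPKM in scramble, against 8.45, 1.84 and 1.18 across sh1, sh3 and sh6. A single liver, sh1, was above every other, and the mean difference was -0.02 ± 0.55 SE on the log2 scale, with a range of -0.66 to 0.4 over the alternatives. Pdgfrb, the receptor that drives stellate growth, overlapped at 1.66 to 1.88 FPKM against 2.21, 1.29 and 1.28 FPKM (limma adjusted p = 0.784).

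Des, an intermediate filament of stellate and smooth muscle cells, had 0.479, 0.446 and 0.465 FPKM in scramble, against 0.744, 0.224 and 0.605 in shBicd2. Lhx2 had 0.284 to 0.461 FPKM against 0.287 to 0.425 FPKM, and Reln 0.627 to 0.99 FPKM against 0.238 to 0.629 FPKM. All 3 were under the filter and overlapped, Reln by the margin between Sc4 at 0.627 and sh3 at 0.629 FPKM.

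Stellate markers outside the set were counted in the same way. Of 19 such genes with a value, 10 were tested, 0 were lower at an unadjusted limma p under 0.05 and 1 was higher, with a median log2 fold change of -0.25. Over all genes tested, 12.7% were lower and 2.97% higher at that p. On the TPM scale 2 of the 10 stellate markers were lower and 1 higher. Without Sc4, Sc5 or sh1 none was higher, without sh3 2 were, and 1 to 2 were lower without any 1 shBicd2 library. Their summed level ran from 986 to 1097 FPKM in scramble and was 248, 1374 and 735 FPKM in sh1, sh3 and sh6, and none of these genes was at 0. Most of this sum was Steap4, a metalloreductase, with 923, 1035 and 907 FPKM in scramble, against 185, 1318 and 673 across sh1, sh3 and sh6. The other 18 genes together had 72.8, 62.1 and 78.3 FPKM in scramble, against 62.6, 55.9 and 62 across sh1, sh3 and sh6, so that sh1 lay just inside the scramble range and sh3 and sh6 below it.

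Sinusoidal endothelium, the other main source of type IV collagen and laminin, was read from 12 markers, 11 of them tested. At an unadjusted limma p under 0.05, 2 were lower (Pecam1 and Lyve1; 0 without Sc5) and 0 higher (1 without sh3 or sh6), with a median log2 fold change of 0.10. The 2 lower markers made 18.2% of the 11, against 12.7% lower over all genes tested. The 12 markers summed to 30.3 to 37.6 FPKM in scramble, against 43.2, 26.6 and 26.6 across sh1, sh3 and sh6. None was at 0. In sh1, 8 of the 12 markers were above every scramble liver, and Lyve1 and Pecam1 were below. In sh3, 1 was above and 9 were below, and in sh6 2 were above and 5 below. Lyve1, a hyaluronan receptor, had 8.84, 9.53 and 11.8 FPKM in scramble, against 1.73, 7.53 and 4.23 across sh1, sh3 and sh6. Pecam1, an adhesion molecule of endothelium, had 3.65, 4.19 and 4.97 FPKM in scramble, against 3.07, 2.63 and 2.28 in shBicd2. The part of endothelial numbers in the collagen IV and laminin values was not tested.

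**Figure D3:**
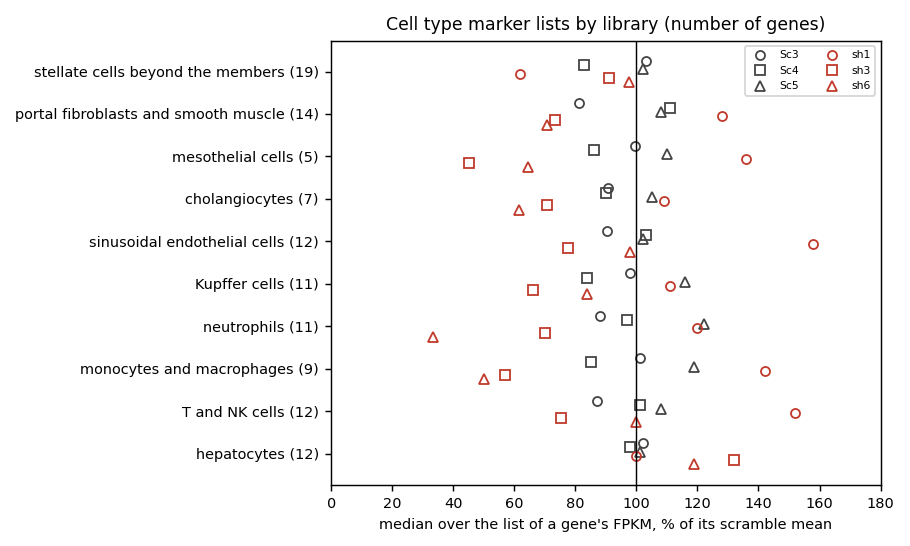
For 10 marker lists, the median over the list of each gene's FPKM as a percentage of its scramble mean, 1 point per library. Scramble libraries lie between 81.3% and 122%, whereas sh1 reaches 158% for sinusoidal endothelial markers and sh6 is at 33.3% for neutrophil markers.

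The plot of marker lists shows how unlike the 3 shBicd2 livers were. For portal fibroblasts and smooth muscle, the median marker stood at 128%, 73.2% and 70.8% of its scramble mean in sh1, sh3 and sh6, and 0 of 4 tested genes were lower at an unadjusted p under 0.05 (1 without Sc3). For mesothelial cells 0 of 5 genes reached the filter. Kupffer cell markers stood at 111%, 66% and 83.9%, monocyte and macrophage markers at 142%, 56.8% and 50%, and T and NK cell markers at 152%, 75.2% and 100%. Cholangiocyte markers stood at 109%, 70.7% and 61.6%, and hepatocyte markers at 99.7%, 132% and 119%. At an unadjusted limma p under 0.05, 1 of 10 Kupffer, 3 of 7 monocyte, 1 of 2 cholangiocyte and 0 of 2 T and NK cell markers were lower, while 3 of 12 hepatocyte markers were higher. Without sh1 these counts were 2, 6, 2, 0 and 5. With all 6 libraries, 12.7% of all genes tested were lower and 2.97% higher. The Kupffer share of 10.0% lay near that of all genes. The Kupffer count was 0 without Sc3 or Sc5 and 2 without sh6, and the cholangiocyte count 0 without Sc5. Stellate markers outside the set stood at 61.8%, 91.1% and 97.4% in sh1, sh3 and sh6. The median marker was above its scramble mean for 8 of the 10 lists in sh1 (not for stellate and hepatocyte markers), for 1 in sh3 and for 2 in sh6. In Sc5, the scramble liver highest for 16 of the 35, it was above for all 10 lists. Medians of the 35 genes, of the stellate markers and of all genes tested lay below the scramble mean in sh1, sh3 and sh6. The part of cell composition in the matrix values was not tested.

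The counts for structural genes, proteases and the remaining genes stand side by side, and differences between them were not tested. Of 45 structural genes (collagens, laminins and glycoproteins) 18 were tested, 8 were lower at an unadjusted limma p under 0.05 (44.4%) and 8 did not overlap, with a median log2 fold change of -0.34. Of 30 proteases 9 were tested, 4 were lower (44.4%) and 3 did not overlap, with a median of -0.56. Of the 14 crosslinkers, inhibitors and stellate genes 8 were tested, 5 were lower (62.5%) and 5 did not overlap, with a median of -0.63. Over all genes tested, 12.7% were lower at that p and 18.7% had all shBicd2 values below all scramble values. Without Sc5 the lower structural genes and proteases numbered 4 and 2, and without sh6 the lower structural genes numbered 5. Summed FPKM of the Adamts family was 17.5 to 24.2 in scramble and 8.41 to 12.6 in shBicd2. Adamts1 alone made 12.4, 12 and 16 FPKM of it in scramble, against 2.51, 7.33 and 4.22 across sh1, sh3 and sh6. With no filter on low values, 7 of the 13 Adamts genes lay below 0 and 6 above. The sum therefore does not speak for the family. Summed FPKM of the Mmp family was 41.3 to 47.4 in scramble and 26.8 to 41.5 in shBicd2.

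**Figure D4:**
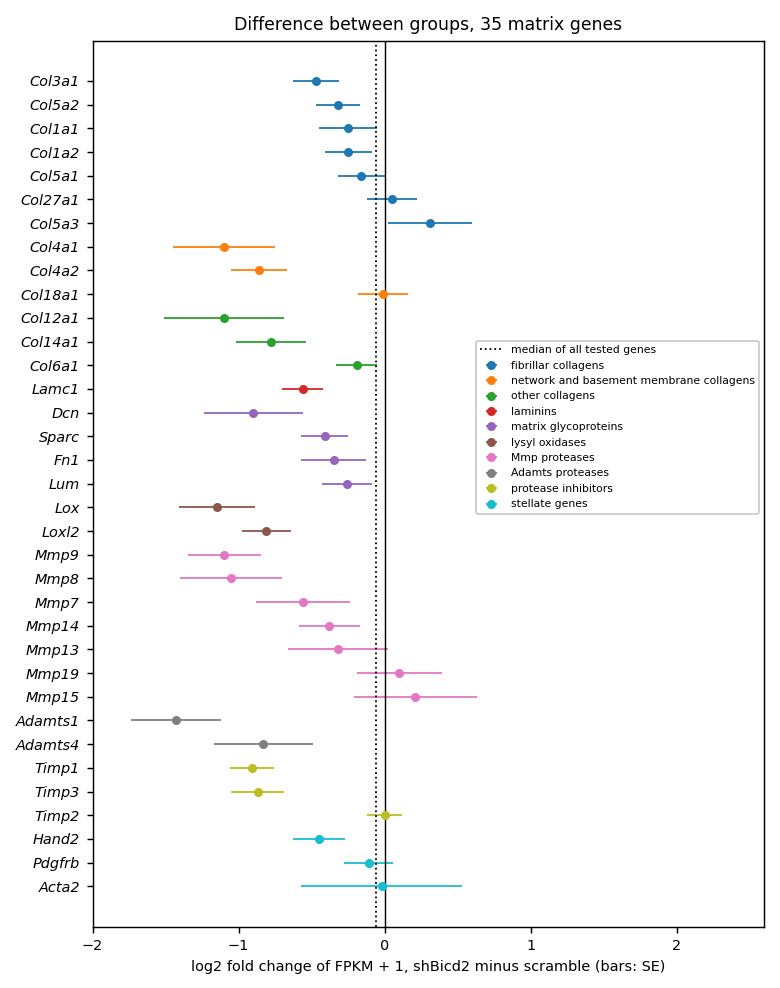
Log2 fold change (shBicd2 minus scramble, on the log2(FPKM + 1) scale) with its SE for the 35 genes tested, coloured by class, with the median of all tested genes as a dotted line. The points run from -1.43 for Adamts1 to 0.31 for Col5a3. Of the 35, 31 lie left of 0, as do 5944 of all 10152 genes tested.

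The plot of fold changes puts the classes side by side. The lowest class medians were those of the Adamts genes (-1.13 over 2 genes), the lysyl oxidases (-0.98 over 2) and the inhibitors (-0.87 over 3), and the highest that of the stellate genes (-0.11 over 3). With 1 to 7 genes tested per class, these medians describe the listed genes only.

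The 54 genes under the filter were counted without a test. In 13 of them (24.1%) all shBicd2 values were below all scramble values, and in 2, Col25a1 and Adamts14, above. Over the 4517 genes of the table under the filter these shares were 11.5% and 4.03%. Their median stood at 84.2%, 73.1% and 70.5% of the scramble mean in sh1, sh3 and sh6. Many of them rest on so few reads that a smaller difference was not detectable at this depth. The other members of this group without overlap were Mmp24, on 2 to 13 reads, and those named above.

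Enzymes that modify and fold procollagen gave 4 lower and 1 higher of 14 tested genes at an unadjusted limma p under 0.05, with a median log2 fold change of -0.23. The 4 made 28.6% of those tested, against 12.7% lower and 2.97% higher over all genes tested. The same 2 shares over all genes apply to each list below. Without sh1, 7 procollagen enzymes were lower, and 0 were higher without any 1 library other than sh3. P4ha2, a prolyl hydroxylase of collagen, had 5.14, 4.44 and 7.2 FPKM in scramble, against 1.57, 2.36 and 2.08 in shBicd2 (log2 fold change -1.12 ± 0.19 SE, limma adjusted p = 0.152). Plod2, the lysyl hydroxylase of collagen telopeptides, had 2.5, 2.12 and 3.18 FPKM in scramble, against 0.457, 1.22 and 0.843 in shBicd2 (log2 fold change -0.98 ± 0.20 SE, limma adjusted p = 0.153). Both were well apart between groups, and the only higher gene was Ppib, a prolyl isomerase of the endoplasmic reticulum.

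Other basement membrane and matrix glycoproteins gave 6 lower and 0 higher of 14, with a median of -0.42. Leaving out 1 library gave 4 to 8 lower, and 1 higher without sh6. Tnc, tenascin C, which appears in injured matrix, had 1.4, 1.43 and 2.06 FPKM in scramble, against 0.669, 0.503 and 0.15 in shBicd2. Nid1, which links laminin to collagen IV, had 6.09, 4.45 and 5.83 FPKM in scramble, against 3.49, 3.09 and 2.41 in shBicd2. Neither overlapped, and their limma adjusted p-values were 0.168 and 0.182.

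Among matrix receptors 6 of 15 were lower and 0 higher, with a median of -0.39. Without Sc3 or Sc5 only 3 were lower, and without sh1 9 were. The collagen receptor kinase Ddr1 had 2.28, 2.9 and 2.72 FPKM in scramble, against 1.56, 1.26 and 0.874 in shBicd2, and the hyaluronan receptor Cd44 had 4.7, 4.11 and 5.4 against 2.95, 2.98 and 2.44 FPKM. Both were apart, with limma adjusted p-values of 0.169 and 0.182.

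TGF-beta signalling, the main inducer of matrix genes in stellate cells, gave 9 lower and 0 higher of 18 tested genes, with a median log2 fold change of -0.53. All 18 lay below 0, while 5944 of all 10152 genes tested did. With quantile normalization, with array weights, without Sc4 or without sh3, 17 of the 18 did. Leaving out 1 library gave 7 to 11 lower. Tgif1, a repressor of Smad activity, had 10.6, 11.3 and 18.5 FPKM in scramble, against 3.44, 7.61 and 4.76 in shBicd2 (log2 fold change -1.22 ± 0.30 SE, limma adjusted p = 0.182). Smad2, which carries the signal to the nucleus, had 2.72, 3.12 and 2.78 FPKM in scramble, against 1.37, 1.71 and 1.9 in shBicd2 (log2 fold change -0.55 ± 0.14 SE, limma adjusted p = 0.182). The list holds genes that pass the signal on, as Smad2 does, and genes that restrain it, as Tgif1 does, and both of these were lower.

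The list of PDGF and stellate growth signals gave 2 lower (28.6%) and 0 higher of 7, both endothelin receptors. The count was 0 without Sc3 or Sc5, and 1 without sh1 or sh6. Ednra had 2.94, 1.58 and 2.88 FPKM in scramble, against 0.5, 1.45 and 1.12 in shBicd2, apart (limma adjusted p = 0.217), and Ednrb overlapped (limma adjusted p = 0.299). The plasminogen system and other protease regulators gave 3 lower (21.4%) and 0 higher of 14, and 5 lower without sh3. Plaur, the urokinase receptor, had 6.79, 6.69 and 9.34 FPKM in scramble, against 2.76, 5.45 and 3.03 in shBicd2, and Adam17, a sheddase that Timp3 inhibits, 6.8, 6.98 and 7.46 against 3.73, 5.68 and 4.4 FPKM. Both were apart, with limma adjusted p-values of 0.198 and 0.205.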

How the data were processed

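Liver RNA was extracted with Trizol, made into TruSeq RNA libraries and sequenced on a NovaSeq, per the labels' protocols. The submitters' processing notes name HISAT2 2.0.5, featureCounts 1.5.0-p3 and the build mm10, but no annotation or strand setting. The authors deposited FPKM, 1 column per library, with no scaling beyond the library total stated and 0 values of 0. Columns name the group but not the labelled replicate, so they were used as replicates without a number. Reads per library were recovered from the FPKM steps with GENCODE M21 exon lengths, and 98.2% of 14339 matched genes came out whole within 0.05 reads in all 6 libraries.

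Values were compared as log2(FPKM + 1) for the 10152 genes whose mean over the libraries reached 1 FPKM. The test was limma's (3.58.1, R 4.3.3; lmFit, then eBayes with the trend option), two-sided and Benjamini-Hochberg adjusted over all genes tested, at a threshold of 0.05. The fit was tested on simulated data. On this scale the change of low genes is understated. Single values were compared by exact two-sided permutation. Other genes named are the 2 of smallest p in each of 6 pathway lists, and marker genes come from 10 lists. Members, lists and the rule for named genes (a fixed panel plus the 3 members of smallest p per class) were chosen with earlier results of these data known; the genes under the filter that did not overlap, or that stood out in 1 library, were chosen after their values were seen. Values of 2 genes are not reported here. Promoter letters are RefSeq's (GRCm38.p6). Python 3.11.15 and matplotlib 3.10.9 drew the figures. The effect of 15 alternatives is in the closing section.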

Additional observations from a re-analysis of the deposited data

How the results depend on the processing

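Of the 35 genes tested, 27 kept the direction of their difference under each of the 15 alternatives in which they were fitted, and 480 of 503 such values had the same sign as the reported one. With limma array weights 2709 genes and 21 of the 35 passed the adjusted threshold, and leaving out 1 library at a time gave 0 to 289 genes and 0 to 4 of the 35, both maxima without sh3. The other alternatives called 0 genes; the cause of these changes was not tested. Genes of the set lower at an unadjusted limma p under 0.05 numbered 28 of 89 with no filter on low values (1 was higher), 9 of 14 with a mean of at least 5 FPKM, 11 with median-of-ratios scaling and 10 to 17 without 1 library, the fewest without Sc5. Leaving out 1 library gave 0 to 1 higher at that p, and 0 to 2 with every shBicd2 value above scramble.

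The median log2 fold change of structural genes was -0.15 with no filter and -0.48 on the TPM scale. That of the proteases was -0.87 and -0.92 with pseudocounts of 0.1 and 0.01 FPKM, -0.14 with no filter, -0.82 on the TPM scale and -0.90 with limma voom. For crosslinkers, inhibitors and stellate genes the same settings gave -0.90, -0.94, -0.28, -0.89 and -0.93, a mean of at least 5 FPKM gave -0.91, and leaving out 1 library -0.73 to -0.54. Over the members fitted together the median was -0.15 with no filter, -0.63 with a mean of at least 5 FPKM and -0.54 with voom. The alternative with no filter takes in the 54 scarce genes, whose log2(FPKM + 1) values lie near 0.

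Changes of sign were as follows. With array weights Col27a1 was -0.22, Col5a3 -0.20, Mmp15 -0.48 and Mmp7 0.15. Col27a1 was -0.02 on the TPM scale, and with median-of-ratios scaling Col18a1 was 0.08, Timp2 0.06 and Acta2 0.04. Quantile normalization gave 0.07 for Timp2 and 0.10 for Acta2. Leaving out 1 library gave -0.09 to 0.19 for Col27a1, -0.08 to 0.12 for Col18a1, -0.29 to 0.58 for Mmp15, -0.20 to 0.42 for Mmp19, -0.05 to 0.03 for Timp2 and -0.66 to 0.40 for Acta2. No paired analysis was possible because the columns do not carry the labelled replicate numbers. Depth limits many of the 54 genes under the filter, which have 1 to 418 reads per library. That filter is set on FPKM and not on reads. Reln, under it, had 103 to 418 reads, while Mmp7, which was tested, had 17 to 70.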
